A study of Saccharomyces cerevisiae with 4 samples.

Results

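The genes described here encode the proteins of the nuclear pore and of the transport system that runs through it in budding yeast (Saccharomyces cerevisiae). They were taken from a list of 54 names covering nucleoporins, karyopherins and the Ran cycle, and each name was matched to the gene symbols of both array platforms. KAP142 is another name of MSN5, so the list holds 53 distinct genes of the 5583 named on the arrays. The symbols matched 51 of the names directly, and NUP59 and PRP20 were found under ASM4 and SRM1. All 53 genes were printed on both platforms, 49 had a value on at least 1 array, and NUP192, NUP1, MLP2 and KAP120 had none. The samples are 4 two-channel arrays of 1 group. On each, RNA that came down with zzMex67 was compared, as cDNA, with a control precipitate made with the zz tag by itself. The zz tag is a short immunoglobulin-binding piece of protein A, used here to pull Mex67 down. The labels give no strain, growth condition, culture or age. They name the precipitates and the slide and scan numbers. Each title also carries a numeric code that differs on every array and is not explained. Replicate 1 was measured on a platform of its own and replicates 2, 3 and 4 on a second platform, and the numbers only name the arrays.

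The nuclear pore is built from a scaffold of coat and inner-ring nucleoporins, anchored by membrane nucleoporins. The scaffold holds FG nucleoporins, whose phenylalanine-glycine repeats fill the channel and are the binding sites of transport receptors. Karyopherins carry proteins and some RNAs through this channel, and the small GTPase Ran, switched between its nucleotide states on the opposite sides of the envelope, tells them where to bind and release cargo. Mex67 is no karyopherin: with Mtr2 it carries messenger RNA by binding FG repeats directly, without Ran. The ratios here concern the messenger RNAs that encode these proteins, not the proteins.

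All values are log2 ratios of the channels minus the median over the genes of the same array, so a value of 1 means 2-fold above that array's middle gene. The numerator of the deposited ratio is not given in the sources used here. A higher value probably stands for more RNA with zzMex67, since the titles put that precipitate ahead and channel 1 held it on replicates 1, 3 and 4. On replicate 2 channel 2 held it, although the title has the same order, so the title alone would leave the sign as deposited. The values of replicate 2 are shown with the sign turned unless stated. The 4 arrays had a value for 40, 3, 16 and 27 of the 53 genes (75.5%, 5.66%, 30.2% and 50.9%), against 79.0%, 9.46%, 41.2% and 43.7% of all genes printed. Why spots lack a value is not stated, and the tables used here hold ratios without intensities, so the brightness behind a ratio is unknown. Where a gene had 2 measured spots, the SD of a single spot was 0.97, 0.81, 0.83 and 0.55 on replicates 1 to 4. The SD over all genes of an array was 1.68, 1.76, 1.83 and 1.44.

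As centred by array, the pore and transport genes as a whole lay around the middle of replicates 1, 3 and 4. Their median was -0.16 on replicate 1 (SD over genes 1.44, 40 genes), -0.07 on replicate 3 (SD 2.17, 16 genes) and 0.05 on replicate 4 (SD 1.60, 27 genes), where all genes have 0 by construction. With each run of 400 neighbouring spots centred on its own median, these medians were -0.05, 0.48 and -0.04. In that setting 12 of the 16 genes on replicate 3 lay above the array median, against 7 as centred by array. Counted as centred by array, 7 of 40 on replicate 1 were 2-fold or more above the array median, against 26.0% of all genes. Another 6 were 2-fold or more below, against 21.1%. On replicate 3 the counts were 5 and 2 of 16, against 28.9% and 21.9% of all genes. On replicate 4 they were 5 and 4 of 27, against 22.5% and 17.4%. The tails of the distribution were therefore not fuller than those of all genes on any of these arrays, apart from 5 of 16 above on replicate 3, a share close to that of all genes.

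**Figure D1:**
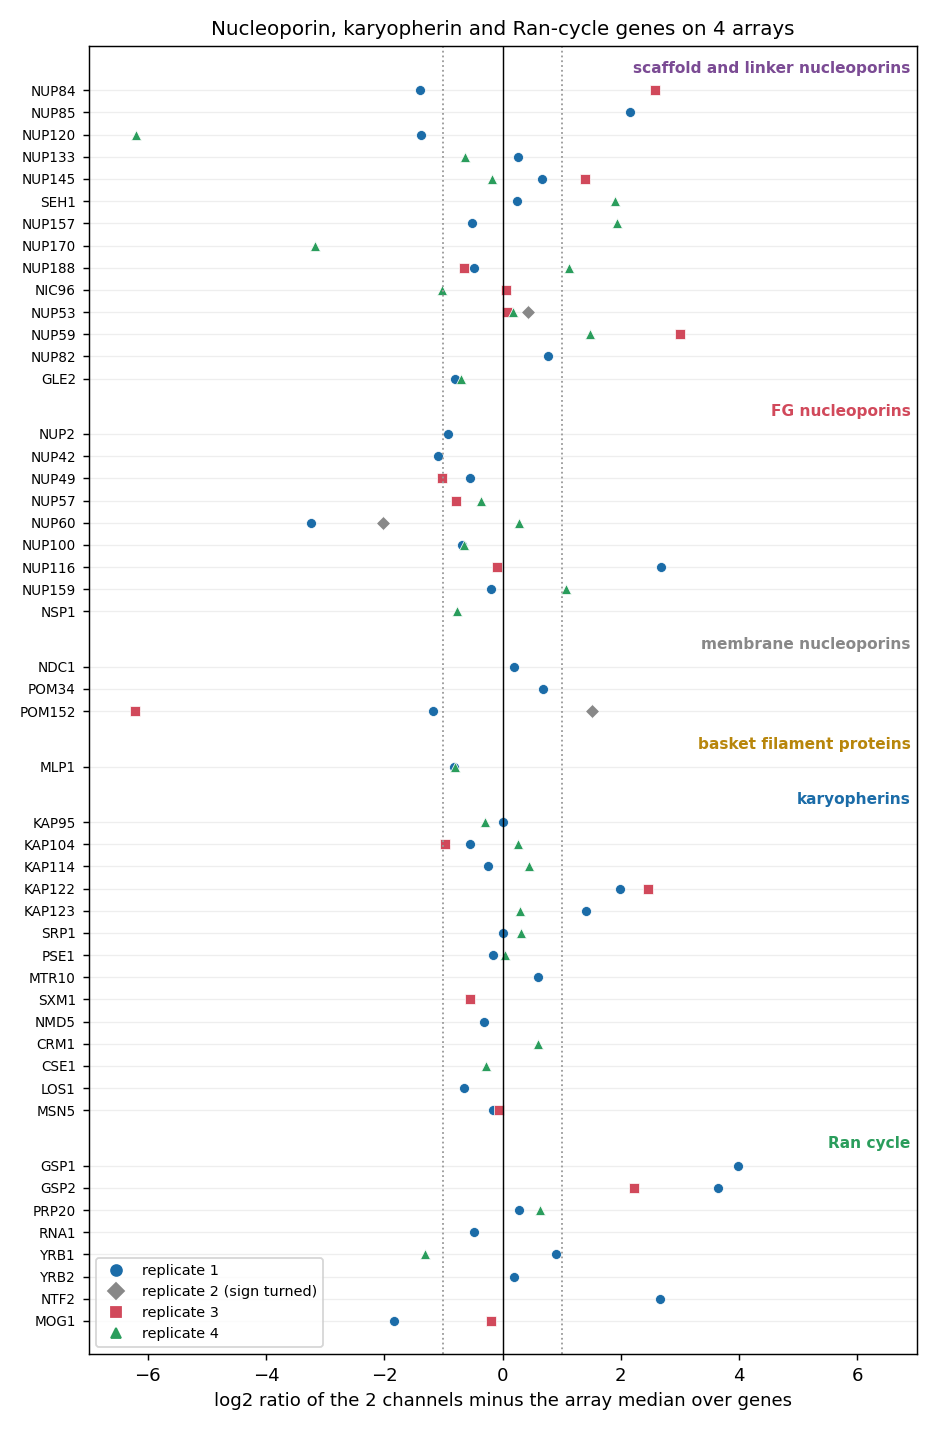
Log2 ratio minus the array median (horizontal axis) of the 49 measured genes (rows, grouped by class), 1 point for each array that measured the gene, with dotted lines at 2-fold. The karyopherin points crowd around 0 apart from KAP122 and KAP123, GSP1 and GSP2 lie far to the right, and NUP120 and POM152 each have a point near -6.2.

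Of the scaffold, the Y complex is the coat of the pore, and the 6 of its genes on the list (SEC13, also a gene of vesicle coats, is described with the other pore genes) had values on both sides of the median. NUP84 had -1.39 on replicate 1 and 2.58 on replicate 3, or -0.48 and 2.90 with each run of 400 neighbouring spots centred on its own median, an alternative that takes out shifts shared by neighbouring spots. NUP120 had -1.38 on replicate 1 and -6.20 on replicate 4, where only 0.372% of genes lay lower. NUP85 had 2.16 on replicate 1, its only value. NUP133 had 0.27 and -0.64 on replicates 1 and 4, and SEH1, a subunit that also serves a complex on the vacuole, had 0.24 and 1.91 on the same arrays. NUP145, whose product cleaves itself into an FG nucleoporin and a Y complex subunit, was measured on 3 arrays, with 0.67, 1.39 and -0.18 on replicates 1, 3 and 4. Genes of proteins that sit side by side in this complex therefore spanned from far below to far above the array median, and the arrays put NUP84, NUP133 and NUP145 on different sides of it.

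The inner ring and linker genes also spread widely. NUP157 had -0.51 and 1.94 on replicates 1 and 4, while NUP170, its close paralog, had -3.17 on replicate 4. This is the only array that measured both, and there they lay on opposite sides of the median beyond 2-fold. With runs of spots centred, they became 0.30 and -2.48, SEH1 on that array 0.27, and NUP145 on replicate 3 0.08. NUP188, the largest member of the ring measured, had -0.49, -0.64 and 1.13 on replicates 1, 3 and 4, and NIC96, the linker that ties the ring to the channel nucleoporins, had 0.05 and -1.02 on replicates 3 and 4. With runs of spots centred, NUP188 had -1.12, 1.15 and 1.00, turning its sign on replicate 3, and NIC96 had 0.55 and -1.97. NUP53 and NUP59 encode related membrane-binding linkers. NUP53 was the only one of the 53 genes that replicates 2, 3 and 4 all measured, with 0.43, 0.08 and 0.18 in that order (mean 0.23 ± 0.18, SD, n = 3), or -0.43 on replicate 2 as deposited. Its mean was 0.71 ± 0.32 (SD, n = 3) with runs of spots centred. NUP59 had 3.00 and 1.47 on replicates 3 and 4, from 1 spot each. With runs of spots centred, these became 0.77 and 0.92. NUP82, the cytoplasmic anchor of Nup159, had 0.78 on replicate 1, and GLE2, the gene of a partner of Nup116 in mRNA export, had -0.81 and -0.71 on replicates 1 and 4. The class median of the 15 scaffold and linker genes was -0.12 (10 measured), 0.73 (6) and -0.18 (11) on replicates 1, 3 and 4.

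The FG nucleoporin genes lay mostly below the array median. Of their 15 values on replicates 1, 3 and 4, 12 were below it, or 10 with runs of spots centred. The class median was -0.69 on replicate 1 (7 genes, 6 of them below), -0.79 on replicate 3 (3 genes, all below) and -0.37 on replicate 4 (5 genes, 3 below). With runs of spots centred these medians were -0.68, -0.02 (2 of 3 genes below) and -0.26. On replicate 1, 4 of the 7 lay less than 2-fold from the median (57.1%, against 52.9% of all genes). NUP2, the gene of a mobile basket protein, had -0.92 and NUP42, which encodes a cytoplasmic-side FG protein of mRNA export, -1.09 on replicate 1, or -0.93 and 0.14 with runs of spots centred. NUP49 and NUP57 encode partners of Nsp1 in the central channel. NUP49 had -0.55 and -1.03 on replicates 1 and 3, NUP57 had -0.79 and -0.37 on replicates 3 and 4 (-0.02 and -0.26 with runs of spots centred), and NSP1 itself had -0.78 on replicate 4.

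The FG values farthest from the median did not repeat on every array that measured the gene. NUP60, which encodes a basket nucleoporin that anchors Nup2 and the Mlp proteins, had -3.24 and -2.01 on replicates 1 and 2 and 0.28 on replicate 4, from 1 spot each, and 2.01 on replicate 2 as deposited. On replicate 1 only 0.930% of genes lay below it, and with runs of spots centred its value there was -1.46. NUP116 had 2.69 on replicate 1, the sole FG value above the median there, and -0.09 on replicate 3. NUP100, the paralog of NUP116 with the same kind of GLFG repeats, had -0.69 and -0.65 on replicates 1 and 4. On replicate 1, which measured both paralogs, they lay on opposite sides. NUP159, the gene of the FG nucleoporin that docks the helicase Dbp5 on the cytoplasmic side, had -0.20 and 1.08 on replicates 1 and 4.

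Few membrane and basket genes were measured. POM152, the gene of the transmembrane ring protein, had -1.18, 1.51 and -6.21 on replicates 1, 2 and 3, or -1.51 on replicate 2 as deposited. The value on replicate 3 came from 1 spot, with 0.219% of genes below it. NDC1, whose product anchors both pores and spindle pole bodies, had 0.20 and POM34 had 0.69 on replicate 1 alone. MLP1, which encodes a filament of the nuclear basket involved in mRNA quality control, had -0.82 and -0.80 on replicates 1 and 4. With runs of spots centred these were -0.81 and -0.39. The SD of 0.0145 over the first pair is far smaller than the difference between spots. On replicate 1 the value came from 1 spot, and on replicate 4 from spots at -0.52 and -1.08.

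Most karyopherin genes lay close to the middle of the arrays. On replicate 4 all 8 measured genes lay less than 2-fold from the median, against 60.1% of all genes, between -0.30 and 0.60. On replicate 1, 9 of 11 did, against 52.9%, and on replicate 3, 3 of 4, against 49.1%. The interquartile range was 0.59 on replicate 1 and 0.38 on replicate 4, where all genes had 1.90 and 1.60. Over the 3 arrays this made 20 of 23 values, and 18 of 23 with runs of 400 spots centred or with only the spot listed first of each gene. With runs centred, more of all genes lay that close: 57.5%, 62.6% and 66.3% on replicates 1, 3 and 4. With the first spot the shares were 52.3%, 49.5% and 58.2%.

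The classical import receptor genes also lay close to the median. SRP1, the gene of importin alpha, which reads the nuclear localisation signal, had 0.01 and 0.32 on replicates 1 and 4. KAP95, the gene of importin beta, its carrier, had 0.01 and -0.30. Some of these values average spots that differ: -0.70 and 0.72 for KAP95 on replicate 1, and -0.31 and 0.95 for SRP1 on replicate 4. The other import receptors included PSE1 (-0.16 and 0.05 on replicates 1 and 4) and KAP123 (1.42 and 0.29), both of which bring in ribosomal proteins. KAP114, which imports the TATA-binding protein, had -0.24 and 0.45 on the same arrays, the first from 2 spots at 0.46 and -0.95. KAP104, the importer of the mRNA-binding proteins Nab2 and Hrp1, was measured on 3 arrays and had -0.56, -0.97 and 0.26 on replicates 1, 3 and 4. Its mean of -0.42 turned to 0.26 with runs of spots centred. MTR10, the importer of the mRNA-binding protein Npl3, had 0.60 and NMD5 -0.32 on replicate 1, and SXM1 had -0.55 on replicate 3. As centred by array, no importer other than KAP123 and KAP122 reached 2-fold on any array.

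KAP122, which encodes an importer of the transcription factor IIA and of ribonucleotide reductase, was the exception, with 1.99 and 2.46 on replicates 1 and 3. Its 2 spots on replicate 1 read 4.35 and -0.37, and replicate 3 measured 1 spot. The export receptors were measured on 1 or 2 arrays each. CRM1, the exporter of proteins with leucine-rich signals, had 0.60, and CSE1, which returns importin alpha to the cytoplasm, -0.28, both on replicate 4. LOS1, the tRNA exporter, had -0.66 on replicate 1, and MSN5, which carries phosphorylated proteins out, had -0.16 and -0.06 on replicates 1 and 3. With runs of spots centred MSN5 had 1.07 and 0.84 and CRM1 had 1.40, so that these genes then lay above the median and both passed 2-fold on an array.

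On replicate 1 the Ran cycle held the highest values of all these genes. It did not on the other arrays that measured it: on replicate 3 NUP59 (3.00), NUP84 (2.58) and KAP122 (2.46) lay above GSP2. On replicate 4 the highest value was that of NUP157, at 1.94. GSP1 and GSP2 encode Ran itself. GSP1 had 3.98 on replicate 1 from 2 spots at 4.45 and 3.51, above 97.2% of genes, or 15.8-fold over the array median. GSP2 had 3.65 on replicate 1 and 2.23 on replicate 3, above 95.7% and 87.5% of genes. On replicate 3 its 2 spots read 4.18 and 0.27, so 1 high spot carries that value, which was 1.23 with runs of spots centred. GSP1 and GSP2 on replicate 1 were 4.002 and 3.38 in that setting. The 2 proteins are nearly identical, and whether the spots tell the transcripts apart is not known. NTF2, which encodes the carrier that brings Ran back into the nucleus, had 2.66 on replicate 1, or 6.31-fold, and 3.89 with runs of spots centred. None of these 3 genes had a value on replicates 2 or 4.

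The regulators of Ran did not share this level. PRP20, the gene of the nuclear exchange factor that charges Ran, had 0.29 and 0.63 on replicates 1 and 4. RNA1, the gene of the cytoplasmic GTPase-activating protein, had -0.48 on replicate 1. The Ran-binding protein genes YRB1 and YRB2 had 0.90 and 0.19 on replicate 1, and YRB1 had -1.32 on replicate 4. MOG1, which encodes a small Ran-binding protein involved in nucleotide release, had -1.83 and -0.20 on replicates 1 and 3. With runs of spots centred PRP20 had 1.43 on replicate 4, YRB1 had 1.81 on replicate 1, and MOG1 had 0.70 on replicate 3. On replicate 1, the only array that measured all 8 genes, the class ran from -1.83 to 3.98 with a median of 0.59, and 3 of 8 were 2-fold or more above, against 26.0% of all genes. Its medians on replicates 3 and 4 were 1.01 and -0.34, from 2 genes each.

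**Figure D2:**
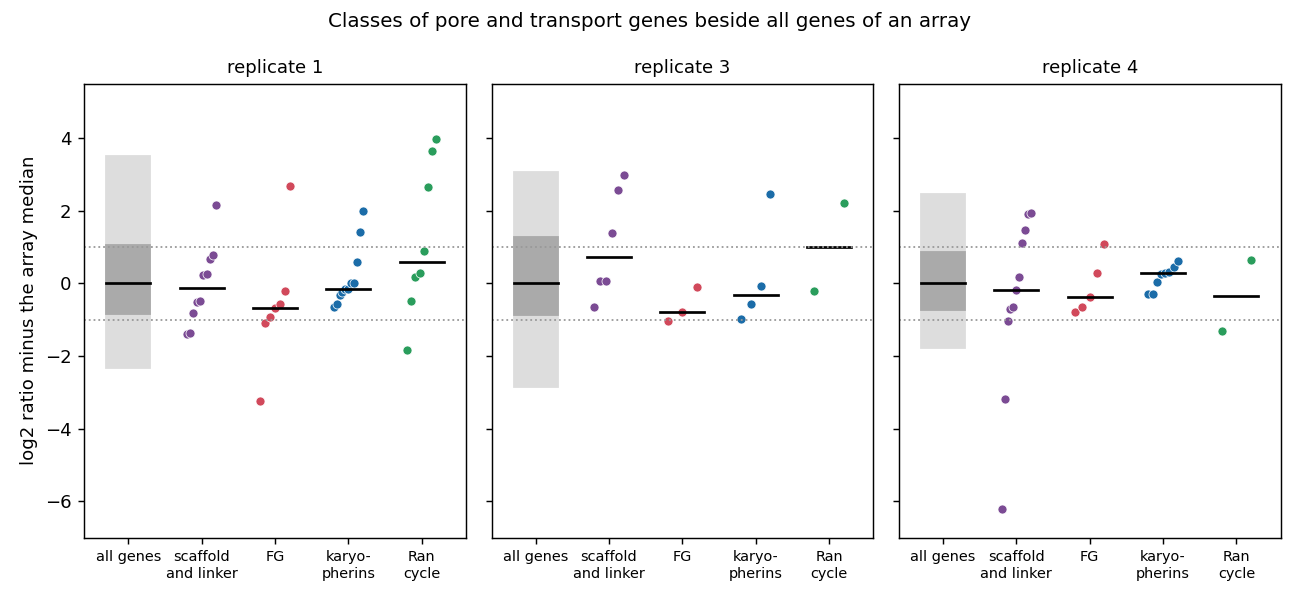
Log2 ratio minus the array median of each measured gene by class (points, with black bars at the class median) on replicates 1, 3 and 4. For all genes the light box spans percentiles 5 to 95 and the dark box the quartiles, and dotted lines mark 2-fold. The FG medians lie below 0 on each array, and the 8 karyopherins on replicate 4 fall between -0.30 and 0.60.

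The class medians, averaged over replicates 1, 3 and 4, were 0.14 ± 0.51 for scaffold and linker genes, -0.62 ± 0.22 for FG genes, -0.06 ± 0.30 for karyopherins and 0.42 ± 0.69 for the Ran cycle (SD over arrays, n = 3). The FG median was lower than the scaffold median on each of these arrays, with differences of -0.56, -1.53 and -0.19 and a mean of -0.76 ± 0.69 (SD, n = 3). The mean was -0.38 without replicate 3 and -0.37 with runs of spots centred, where the FG median on replicate 4 was -0.26 and the scaffold median -0.30, so that the order turned there. The order depends on where 3 genes are counted. With NUP145, NUP53 and NUP59, whose products also carry FG repeats, moved to the FG class the difference was 0.16. Replicate 2 measured NUP60 alone of the FG genes, and adding that array brought the averaged FG median to -0.97, or to 0.04 with its sign as deposited. Karyopherins minus scaffold genes gave -0.03, -1.04 and 0.46 on replicates 1, 3 and 4, a mean of -0.20 ± 0.76 (SD, n = 3). That mean became 0.21 without replicate 3, and 0.17 ± 0.23 (SD, n = 3) with runs of spots centred. The Ran cycle minus karyopherins gave 0.75, 1.32 and -0.62, a mean of 0.48 ± 1.00 (SD, n = 3). It was 1.03 without replicate 4 and 0.06 without replicate 3. The spread between arrays was as large as or larger than each of these differences except that between FG and scaffold genes, as centred by array. This spread also holds differences in which genes were measured, since the arrays did not measure the same members of a class. Of the Ran cycle, replicate 3 measured GSP2 and MOG1, while replicate 4 measured PRP20 and YRB1.

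The share of genes that lay on the same side of the median on a pair of arrays differed between pairs. On replicates 1 and 4, 8 of 19 lay on the same side, against 52.5% of all genes measured on both, and on replicates 3 and 4, 3 of 7 did, against 50.5%. On replicates 1 and 3 it was 9 of 11, against 51.6%. These are counts of genes within the same arrays and carry no test. Among the 31 genes with values on 2 or more arrays, 3 were 2-fold or more above on every array that measured them, NUP59, KAP122 and GSP2, against 5.35% of all such genes. With runs of 400 spots centred, KAP122 and GSP2 remained, against 3.53% of all such genes. NUP120 was 2-fold or more below on both of its arrays, against 3.68% of all such genes. With replicate 2 as deposited, POM152 was also 2-fold or more below on every array that measured it. The share of all genes was not counted in that setting.

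Limma's test within the second platform called none of the 9 members that could be fitted, and 0% of the 1212 genes with values on at least 2 of replicates 2, 3 and 4. At an unadjusted p under 0.05 it took 4.70% of all genes and 0 of the 9 members. The strongest were POM152, with -2.35 (SE 1.27) from replicates 2 and 3, and NUP59, with 2.24 (SE 1.27) from replicates 3 and 4 (limma, adjusted p = 0.998 for both). NUP53 had 0.23 (SE 1.04) from all 3 arrays, and NUP60 -0.87 (SE 1.27) from replicates 2 and 4 (limma, adjusted p = 0.998 for both). With replicate 2 as deposited POM152 had -3.86 (limma, unadjusted p = 0.00178, adjusted p = 0.244). It was then the 1 of 9 members with an unadjusted p under 0.05, against 6.85% of all genes. In a fit that joins all 4 arrays by gene across the platforms, 4 of 31 members had an unadjusted p under 0.05, against 6.72% of the 3288 genes in that fit, and 0 passed: NUP120 (-3.79, SE 1.20), GSP2 (2.94, SE 1.02), KAP122 (2.22, SE 1.01) and NUP59 (2.24, SE 1.02), with limma's adjusted p-values from 0.620 to 0.732. The labels do not say whether arrays come from different cultures or precipitations, so these p-values rest only on spread between arrays, which may be technical. In the fit within the second platform this spread was pooled over genes. Each member measured on 2 arrays had the same SE of 1.27 there. A p-value of that fit thus does not reflect the gene's own spread, which for POM152 was an SD of 5.46 over replicates 2 and 3.

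**Figure D3:**
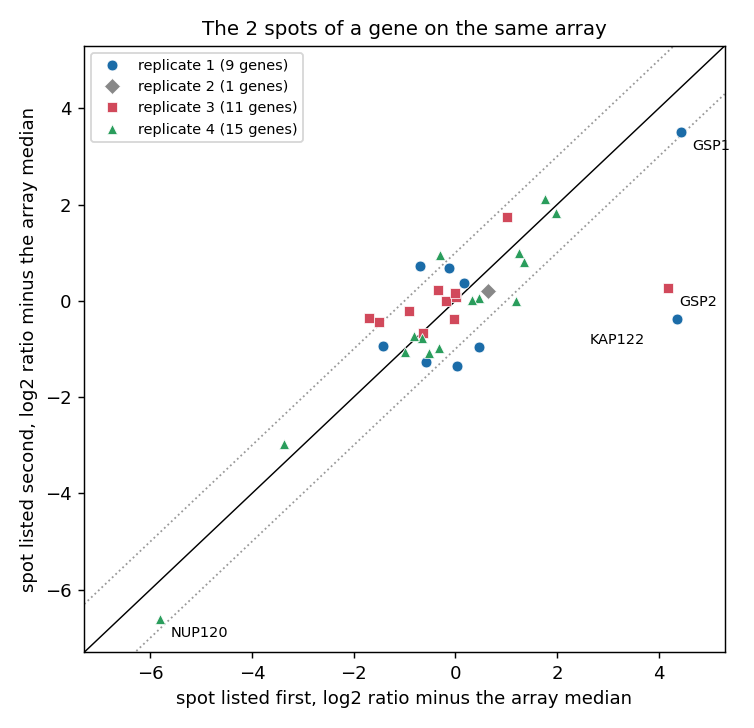
The log2 ratio minus the array median of the spot listed second against that of the spot listed first, for each member and array with 2 measured spots, with the line of equality and dotted lines 2-fold from it. Most pairs lie close to the line. KAP122 on replicate 1 and GSP2 on replicate 3 lie far from it, and both NUP120 spots on replicate 4 are below -5.

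Spots of the same gene show which of these values were repeatable within an array. On replicate 4, 13 of 15 pairs differed by less than 2-fold, against 86.3% of all genes with 2 measured spots, with a median difference of 0.39. On replicate 3, 8 of 11 did, against 73.1%, with 0.58. On replicate 1, 5 of 9 did, against 60.3%, with 0.93. The members were thus close to all genes in this. Both NUP120 spots on replicate 4 were low, at -5.81 and -6.60, and so were both NUP170 spots, at -2.97 and -3.37. NUP157 had 1.77 and 2.11 on that array. The gap between the inner-ring paralogs NUP157 and NUP170 was thus larger than the difference between spots of either. The widest disagreements were those of KAP122 on replicate 1 (4.72) and GSP2 on replicate 3 (3.92).

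The classes also differ in length, which the choice of genes did not use. Karyopherin genes had a median length of 3099 bases and FG genes 2376.5, while Ran cycle genes had 661.5 (gene lengths from the RefSeq table of assembly R64). On replicate 1 the 7 measured members under 1000 bases had a median of 0.90 and the other 33 had -0.24. Over all genes the medians were 0.22 and -0.08, and Spearman's rho between length and ratio was -0.13 (4405 genes), against -0.18 over the 40 members. On replicates 3 and 4 it was -0.03 and -0.01 over all genes. Length thus moved with the ratio on replicate 1, where GSP1, GSP2 and NTF2 were measured, and its part in their values was not tested.

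Of a list of 24 other genes of the pore and its assembly, 18 were measured on replicate 1, with a median of 0.74. There 8 were 2-fold or more above and 2 below, against 26.0% and 21.1% of all genes. On replicates 3 and 4 the medians were 0.14 (8 genes, 3 above and 0 below, against 28.9% and 21.9% of all genes) and 0.26 (12 genes, 3 above and 2 below, against 22.5% and 17.4%). SEC13 had 0.24 on replicate 1 alone. DBP5, the gene of the helicase that acts on Nup159, was above the median on all 3 arrays, at 1.23, 1.89 and 0.91. MTR2, the gene of Mex67's partner, had -0.74, 2.68 and 0.34, and PER33, which encodes a pore membrane protein, 2.19, -0.67 and 0.90. SNL1, which encodes a membrane chaperone-binding protein tied to pore integrity, had -0.27, 0.22 and -1.03. The membrane-shaping genes YOP1 and RTN1 had 3.35 and 2.06 on replicate 1, and -0.73 and 0.18 on replicate 4.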

How the data were processed

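The 4 two-channel arrays lie in 2 tables, which the authors deposited as uncentred log10 ratios. The base was read from the values of the second table. There, 10 to their power gave fractions with denominators up to 50 for 15.6% of spots on replicate 3, against 0.152% with base 2. On replicate 1, the only array of the other table, the shares were 0.276% and 0%, too few to settle the base. The same base was taken for it. Numerator, dyes, background correction, within-array normalization and genome build: not given in the sources used here. Ratios were converted to log2, spots of a gene averaged, arrays centred on their gene median, and replicate 2 sign-turned. Slide and scan numbers are 1 and 1, 5 and 3, and 3 and 3 for both replicates 3 and 4. The code in the titles differs between replicates 3 and 4 too. With a code of its own for each array, no batch could be separated. Symbols were updated by gene identifier through RefSeq R64. A repeated spot identifier without values was dropped.

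Limma 3.58.1 (R 4.3.3; lmFit and eBayes, intercept, Benjamini-Hochberg threshold 0.05) was fitted to all genes with values on at least 2 arrays of the second table, after a test on simulated data. Values were computed with Python 3.11.15 and pandas 2.3.3. Every gene with values on 3 or more arrays is named, with the extremes of each class on replicate 1 and the paralog pairs. Members, classes and lists were chosen with earlier results of these data known. The precision is limited by the number of arrays. No sequences were used.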

Additional observations from a re-analysis of the deposited data

How the results depend on the processing

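No alternative made limma call a member or any gene: the count stayed at 0 with replicate 2 as deposited, with genes on all 3 arrays of the second table (smallest adjusted p = 0.700), with replicates 1, 3 and 4, with all 4 arrays, without centring, with a common median absolute deviation, with quantile normalization, with runs of 400 spots centred, and without replicate 2, 3 or 4. Unadjusted p-values under 0.05 numbered 57 genes in the fit reported and 5 to 221 in these. Of 106 class medians, differences and calls recomputed, 93 stayed within 1 SD over arrays or at the same count and 13 moved further. Leaving out 1 of 3 arrays cannot move a mean by 1 SD, and differences do not depend on centring, so those stayed by construction. The rule also passes a turned sign, as for karyopherins minus scaffold genes, from -0.20 to 0.21 without replicate 3 and to 0.17 with runs centred. The 93 is therefore no measure of robustness. Without centring, the class medians were 0.97 for scaffold, 0.21 for FG, 0.77 for karyopherin, 1.25 for Ran cycle and 0.77 for all genes of the list, which adds each array's own median. Including replicate 2 gave -0.97 for FG genes and 0.061 for all, and as deposited 0.0405 for FG genes and 0.0396 for FG minus scaffold. With runs centred the FG median was -0.32 and that of all 0.13. With NUP145, NUP53 and NUP59 among the FG genes, their median was -0.21 and the difference from the scaffold 0.16. The cause was not tested. Counts added after seeing the data are given beside the results: FG values below the median were 12 of 15, and 10 of 15 with runs centred. No paired analysis was possible because the arrays form 1 group.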
